A study of Mus musculus with 6 samples.

Results

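Hedgehog pathway genes were compared between neonatal and adult mouse testis. The members were Dhh, Ptch1, Smo, Hhip, Sufu, Gli1, Gli2 and Gli3, which are 8 of the 19049 genes named by the mRNA probes of the array, and each was found through the RefSeq accession of its probe. RNA came from whole testis of C57/BL6 mice aged 6 days (neonatal) or 8 weeks (adult), and the labels name no treatment or genetic change for either age. Each age had 3 biological replicates, and each replicate was RNA from a group of animals, in neonatal testis a larger group than in adult testis by the study's methods, and was hybridized in 1 colour to its own array. Replicates 1 and 2 of both ages shared 1 scan date and replicate 3 of both ages had another. Arrays of 1 scan date are called a slide here, which was inferred, as no slide name was read. With 3 arrays of pooled animals per age, no value here measures the spread between single animals, and the number of arrays limits the precision. The values per array show the spread between pools and arrays. Each SE is that of the adult-minus-neonatal difference within replicates, moderated across probes. It leaves out shifts shared by both arrays of a replicate and can be far smaller than the spread between pools.

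Hedgehog ligands are secreted, lipid-modified proteins that bind the membrane receptor Ptch1 on a receiving cell. Free of ligand, Ptch1 holds back the membrane protein Smo; once ligand is bound, Smo acts through the primary cilium on the Gli transcription factors, which Sufu otherwise retains in the cytoplasm. In the testis, Dhh is the ligand of Sertoli cells, and the Leydig cell precursors and peritubular myoid cells outside the tubule are known to respond to it. Gli1, Ptch1 and Hhip are also widely used as transcriptional targets of the pathway.

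Signals were divided by the 75th percentile of their array and put on the log2 scale with a common floor of -7.22; the result is the normalized log2 signal. That percentile was 2947, 2503 and 1385 on the neonatal arrays of replicates 1 to 3, and 1856, 1425 and 747.3 on the adult arrays. Between 65.9% and 69.8% of the spots of an array were marked by the scanner software as well above background. A log2 fold change is adult over neonatal, so a negative value is a lower signal in adult testis, and it was tested with limma over all lncRNA and mRNA probes, with the replicate number as a block. A gene was called where its Benjamini-Hochberg adjusted p was at most 0.05. Spots that the software flagged as outliers were left out of this fit. The flags left Dhh, Smo and Hhip without any neonatal value, and for these 3 genes the fit with flagged spots kept is given instead. Among mRNA probes above background, 9.25% had all neonatal spots flagged.

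Most of the 8 members were lower in adult than in neonatal testis. All 8 members could be told from background on some array, and 5 could be tested with flagged spots left out. Of these, 4 fell in adult testis, where 45.8% of all tested mRNA probes fell, and 1 rose, where 29.7% of all rose. At a change of at least 5-fold, 3 members fell, against 13.7% of all tested mRNA probes. With flagged spots kept, all 8 members were tested and 7 of them fell (49.5% of all mRNA probes did), while 1 rose (29.8% of all). In that fit, 6 members fell by at least 5-fold, against 15.4% of all. For 6 members every neonatal array lay above every adult array, a pattern seen for 45.6% of all tested mRNA probes. The median log2 fold change was -2.85 over the 5 members and -0.40 over all mRNA probes with flagged spots left out, and -3.75 over the 8 members and -0.50 over all mRNA probes with the spots kept. After the normexp background correction, which adds an offset of 50 to every spot, the median over the 5 members was -1.02 beside 0.03 for all mRNA probes. In that fit 3 of the 5 members fell and 1 rose, where 38.7% of all mRNA probes fell and 40.5% rose. By at least 5-fold, 1 member fell, against 6.84% of all. With flagged spots kept, normexp gave log2 fold changes of -3.03 for Dhh, -3.52 for Smo and -4.25 for Hhip. In whole testis, fewer cells of a type and less RNA per cell cannot be told apart.

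**Figure D1:**
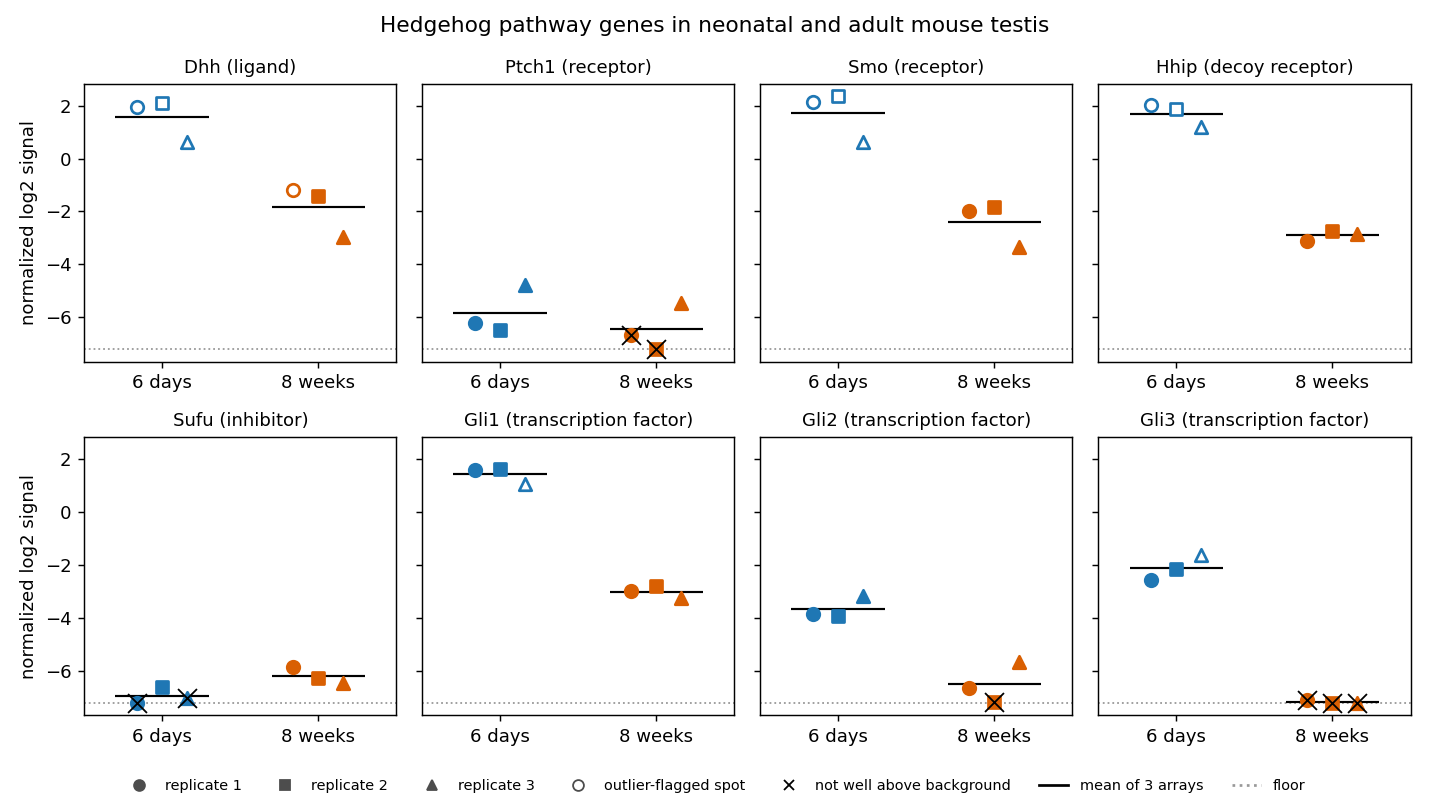
Normalized log2 signal (vertical axis) of the 8 members on each array of testis at 6 days and 8 weeks. Symbols stand for replicates, open symbols for outlier-flagged spots, crosses for spots not well above background, bars for the mean of 3 arrays and the dotted line for the floor of -7.22. Dhh, Smo, Hhip, Gli1, Gli2 and Gli3 are separated by age with the neonatal arrays higher, Ptch1 overlaps, and Sufu lies near the floor at both ages.

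Dhh (NM_007857) encodes the ligand. On the neonatal arrays of replicates 1 to 3 its normalized log2 signal was 1.95, 2.10 and 0.62, and on the adult arrays -1.18, -1.41 and -2.96. Replicate 3 was the lowest array of each age, and even this neonatal array lay above every adult array. With flagged spots kept, Dhh fell by 10.6-fold in adult testis (log2 fold change -3.41 with SE 0.15, limma adjusted p = 0.000101). The difference was -3.32 within the slide of replicates 1 and 2 and -3.58 within the slide of replicate 3. The 3 neonatal spots and the spot of adult replicate 1 carried the outlier flag.

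Ptch1 (NM_008957), the ligand's receptor, gave a dim signal at both ages. It read -6.23, -6.50 and -4.79 on the neonatal arrays and -6.68, -7.22 and -5.46 on the adult ones, in the order of replicates 1 to 3, and the last adult value lay above neonatal replicates 1 and 2. The ages therefore overlapped, although the adult array was the lower of its pair in all 3 pairs. All 3 neonatal spots but only 1 of the 3 adult spots were well above background, with background-subtracted signals of 27.7 to 50 in neonatal and 6.74 to 18.0 in adult testis. Ptch1 fell by 1.53-fold (log2 fold change -0.61 with SE 0.11, limma adjusted p = 0.00924), which stood -0.21 from the median of all mRNA probes. It was -0.59 and -0.67 within the slides. This call was lost without the replicate block (adjusted p = 0.422), and after normexp the difference was 0.20 in the other direction (adjusted p = 0.117). The offset of normexp is about as large as the brightest Ptch1 signal, and its part in the reversal was not tested.

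Smo (NM_176996), the membrane protein that Ptch1 restrains, separated the ages widely. Its signal was 2.15, 2.36 and 0.61 in the neonatal and -1.99, -1.85 and -3.34 in the adult replicates, in the order 1 to 3. As for Dhh, replicate 3 was lowest in each age, and no adult array reached a neonatal one. Smo fell by 17.2-fold with flagged spots kept (log2 fold change -4.10 with SE 0.12, limma adjusted p = 4.14e-05), by -4.18 and -3.95 on the log2 scale within the slides. All 3 neonatal spots were flagged as outliers.

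Hhip (NM_020259) encodes a membrane protein that binds Hedgehog ligands without passing on a signal, a decoy receptor. The signal was 2.02, 1.88 and 1.21 on the neonatal arrays, against -3.11, -2.76 and -2.86 on the adult arrays. The adult arrays lay within a narrow range, far below all neonatal arrays. Hhip fell by 24.5-fold with flagged spots kept (log2 fold change -4.61 with SE 0.24, limma adjusted p = 0.000156). Within the slides it was -4.88 and -4.07, and all 3 neonatal spots were flagged here too.

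Sufu (NM_015752), the cytoplasmic inhibitor of the Gli proteins, was the member that rose. The neonatal arrays gave -7.22, -6.61 and -7.06, and the adult arrays -5.86, -6.30 and -6.46. All adult arrays lay above all neonatal arrays, but these values are close to the floor, and only 1 neonatal spot was well above background against 3 adult spots. Sufu rose by 1.69-fold (log2 fold change 0.76 with SE 0.24, limma adjusted p = 0.0452), with 0.84 and 0.61 within the slides. In 18 of 26 alternative settings Sufu was no longer called, with log2 fold changes of 0.44 to 0.99 over all of them and adjusted p of up to 0.216. A further probe of Sufu (NM_001025391) rose well above background on 1 adult array and on no neonatal array. It read -7.22 on each neonatal array and -7.22, -6.93 and -6.42 on the adult arrays, and its difference of 0.37 with SE 0.19 did not pass (limma adjusted p = 0.153).

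The Gli genes encode the zinc finger transcription factors at the end of the pathway. Gli1 (NM_010296) acts as an activator, and it read 1.59, 1.65 and 1.06 on the neonatal arrays and -3.0, -2.79 and -3.26 on the adult arrays. Arrays of an age lay close together and the ages were far apart. The spot of neonatal replicate 3 was flagged, and without it Gli1 fell by 22.9-fold in adult testis (log2 fold change -4.52 with SE 0.14, limma adjusted p = 0.000397). Within the slides, with the flagged spot kept, the differences were -4.52 and -4.33.

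Gli2 (NM_001081125), known as the main activator downstream of Smo, read -3.87, -3.94 and -3.16 in the neonatal and -6.67, -7.19 and -5.66 in the adult replicates. Replicate 3 was here the highest array of each age, and the ages did not overlap. Gli2 fell by 7.22-fold (log2 fold change -2.85 with SE 0.18, limma adjusted p = 0.000491), with -3.03 and -2.50 within the slides. Adult spots were well above background on 2 of 3 arrays. After normexp the log2 fold change was smaller, at -1.02, and still passed (adjusted p = 0.000799).

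Gli3 (NM_008130), which is largely processed to a repressor where ligand is absent, was the member not well above background on any adult array. The neonatal arrays gave -2.58, -2.15 and -1.63, and the adult arrays -7.10, -7.22 and -7.22, at or beside the floor. Such a gene has only a lower bound on its fold. For each dim array the higher of 2 values was used, the gene's own signal or the floor of -7.22. Their mean was set against the mean of the brighter age on the log2 scale. After scaling, the floor lay above the faintest signal that the software placed well above background on each array. The bound therefore rests on the floor and holds for this processing only, and for Gli3 it equals the fitted fold. Where a bright spot was flagged, the lower of the bounds over all dim arrays and over the replicates with a bright spot left is given, a choice made after seeing the data. By this bound Gli3 was at least 27.7-fold higher at 6 days over replicates 1 and 2, because the spot of neonatal replicate 3 was flagged (limma adjusted p = 0.000731). Within the slides, with that spot kept, the differences were -4.79 and -5.59. They rest on adult spots at or beside the floor and are not exact changes. After normexp the log2 fold change of Gli3 was -1.87 (adjusted p = 0.000587).

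Scaling and background correction moved the median of all mRNA probes, and normexp moved single genes by unequal amounts. The median log2 fold change of all tested mRNA probes was -0.40 as processed, -0.74 after quantile normalization, -0.65 after the shift to the median, -0.84 on the authors' log2 values and 0.03 after normexp. Among called mRNA probes 60.6% were lower in adult testis, and 48.9% were after normexp. Relative to the medians of their fits, the members stood at -2.90 (Dhh), -0.21 (Ptch1), -3.60 (Smo), -4.11 (Hhip), 1.16 (Sufu), -4.12 (Gli1), -2.45 (Gli2) and -4.39 (Gli3) on the log2 scale, where the value of Gli3 rests on adult spots at or beside the floor. The direction was the same under each scaling and background correction tried for each member except Ptch1.

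Beyond the members, 51 other genes of the pathway were listed by role, of which 48 could be told from background on some array. With flagged spots left out 39 were tested, of which 19 fell in adult testis, 13 rose and 7 did not pass. These counts are close to the 45.8% and 29.7% of all tested mRNA probes that fell and rose. The median log2 fold change was -0.36 beside -0.40 for all mRNA probes, but it depended on the processing. With no floor it was -0.83 beside -0.48, and after quantile normalization -1.18 beside -0.74. It was -0.62 beside -0.65 after the shift to the median, and -0.20 beside 0.03 after normexp. With the spots kept, 27 of 48 fell and 17 rose, where 49.5% and 29.8% of all did, with a median of -0.99 beside -0.50. The median with the spots kept was -0.91 within the slide of replicates 1 and 2 and -0.85 within the slide of replicate 3.

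Both other ligands fell in adult testis, where 45.8% of all tested mRNA probes fell. Shh (NM_009170), the ligand of the neural tube and limb bud, read -3.93, -5.07 and -4.48 on the neonatal arrays and was at the floor of -7.22 on every adult array. It was not well above background in adult testis and was at least 6.64-fold higher at 6 days, from 3 neonatal arrays (limma adjusted p = 0.00124). Ihh (NM_010544), the ligand of growth plate cartilage, read -3.20, -3.26 and -3.35 in neonatal and -4.18, -4.52 and -3.84 in adult replicates, without overlap. Its call (log2 fold change -0.91 with SE 0.19, limma adjusted p = 0.0125) was lost in 6 of 23 alternative settings: after normexp, with no filter, without replicate 1, without replicate 2, and in the paired test of the study's methods before and after adjustment. After normexp the log2 fold change was -0.62 for Shh (adjusted p = 0.0491) and -0.27 for Ihh (adjusted p = 0.167).

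Genes that attach lipid to the ligand or let it leave the cell were split, with 2 of 5 tested genes falling and 2 rising, beside 45.8% and 29.7% of all mRNA probes. Disp1, a membrane transporter for release of the lipid-bearing ligand, fell with a log2 fold change of -3.02 (limma, SE 0.17, adjusted p = 0.00119). Hhat, the enzyme that adds palmitate to the ligand, fell with -2.08 (SE 0.15, adjusted p = 0.000732). The further receptors and co-receptors fell in 3 of 3 tested cases, where 45.8% of all did, with a median of -1.17. With flagged spots kept, 4 of 4 fell, where 49.5% of all did, with a median of -2.07. Cdon and Boc are membrane proteins that present the ligand to Ptch1. Cdon fell with -3.22 (SE 0.14, adjusted p = 0.000693) and Boc with -1.17 (SE 0.15, adjusted p = 0.00777). After normexp, 2 of the 3 co-receptor genes tested without flagged spots fell and 1 rose, beside 38.7% and 40.5% of all mRNA probes. The calls of Disp1 (adjusted p = 0.0715) and Boc (adjusted p = 0.104) were lost in the paired test of the study's methods after adjustment, and that of Boc also before it.

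Of 12 tested regulators between Smo and Gli, 6 fell in adult testis and 4 rose, close to the 45.8% and 29.7% of all mRNA probes. Evc2, which holds Smo at the base of the primary cilium, fell with a log2 fold change of -3.09 (limma, SE 0.10, adjusted p = 0.000143). Its partner Evc was not well above background on any adult array and was at least 16.8-fold higher at 6 days, from 2 neonatal arrays (adjusted p = 0.00128), with a log2 fold change of -1.92 after normexp. Arrb2, an arrestin that binds Smo, fell with -2.99 (SE 0.17, adjusted p = 0.00115). Ciliary transport genes formed the list that rose: 0 of 9 tested genes fell and 7 rose, with a median of 1.35, against 45.8% and 29.7% of all tested mRNA probes. Ift122 and Ift80 are subunits of the particles that carry cargo along the cilium, and also along the growing sperm tail. Ift122 rose with 2.93 (SE 0.15, adjusted p = 0.00102) and Ift80 with 2.44 (SE 0.15, adjusted p = 0.00131). The list's median stayed between 1.09 and 1.35 under the scalings and background correction tried, and on the authors' log2 values 1 gene of the list fell. The calls of Evc (adjusted p = 0.0906), Arrb2 (0.0684), Ift122 (0.0572) and Ift80 (0.0526) were lost in the adjusted paired test of the study's methods, and that of Evc also before adjustment.

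Genes known as targets of the pathway in other tissues fell in 6 of 8 tested cases and rose in 0, beside 45.8% and 29.7% of all mRNA probes, with a median of -2.12. Mycn, a transcription factor of dividing progenitors, fell with a log2 fold change of -4.10 (limma, SE 0.14, adjusted p = 0.000441). Ccnd2, a D-type cyclin also found in spermatogonia, fell with -4.08 (SE 0.14, adjusted p = 0.000451). These genes have other regulators as well, and what drives them in testis was not tested.

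**Figure D2:**
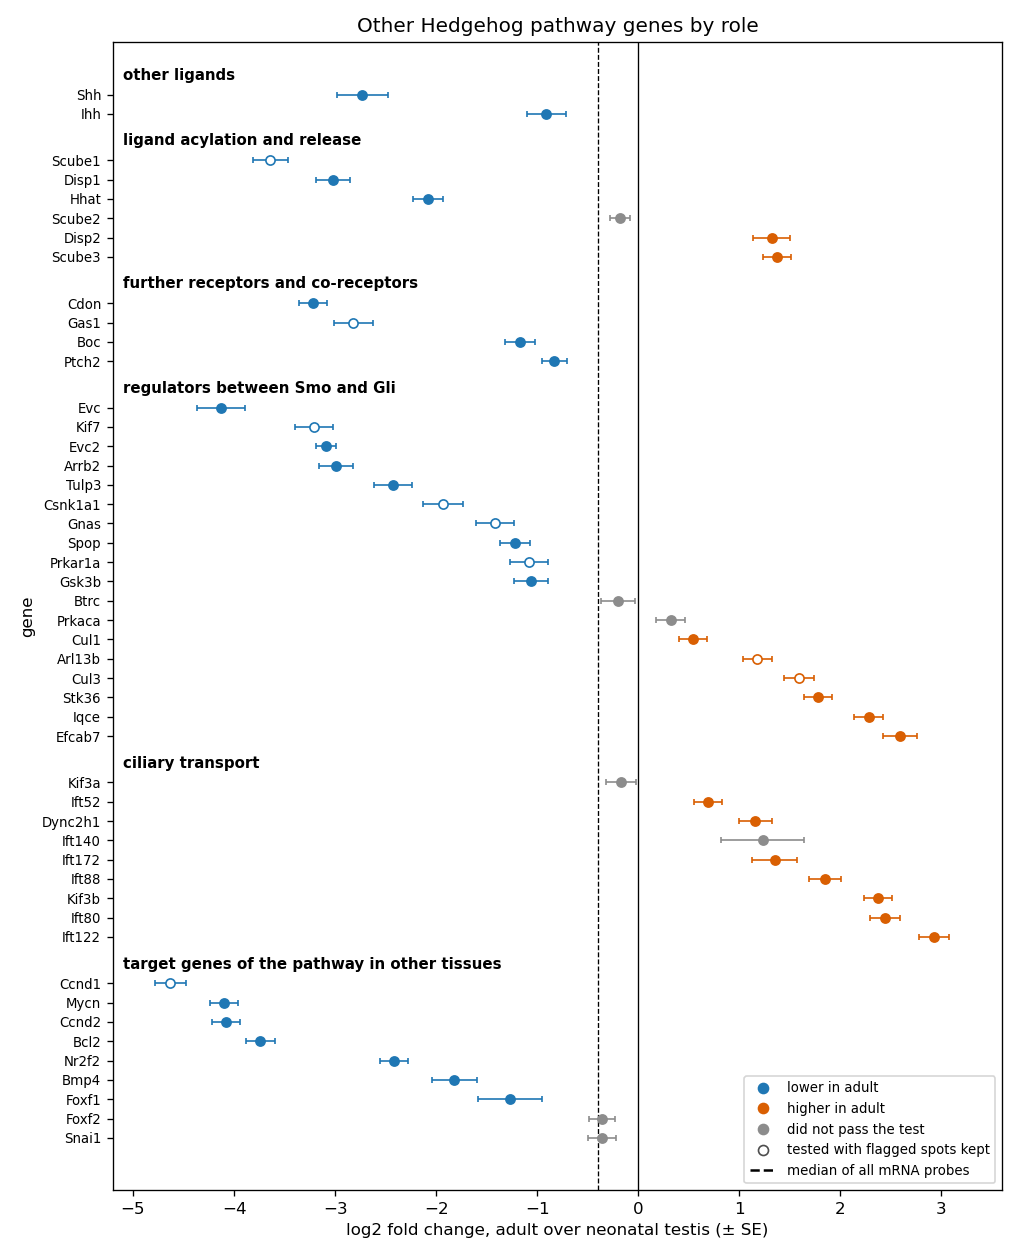
Log2 fold change, adult over neonatal testis, with its SE (horizontal axis) for each tested gene of the pathway list, grouped by role. Filled points come from the fit without flagged spots and open points from the fit that kept them, blue marks genes that fell, orange genes that rose and grey those that did not pass, and the dashed line is the median of all mRNA probes, -0.40. Receptors lie to the left of this line, target genes mostly to the left, and ciliary transport genes to the right of it.

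Marker genes of testis cell types moved between the ages alongside the members, and their part in the result was not tested. Each list was summed on every array in units of the array's 75th percentile, and counts of calls are those of the fit with flagged spots kept, in which 49.5% of all mRNA probes fell and 29.8% rose; each count of markers stands beside these shares. Sertoli cells are the source of Dhh, and 6 of 6 tested Sertoli markers fell in adult testis. Their sum was 65.1, 65.9 and 38.7 on the neonatal arrays and 16, 12 and 9.44 on the adult arrays, with Wt1 the brightest by mean at both ages, although Clu was above it on neonatal replicates 1 and 2.

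The cells that receive the ligand lie outside the tubule. Interstitial mesenchyme markers fell in 5 of 5 cases, with sums of 78.7, 86.4 and 153.4 in neonatal and 16.8, 24.3 and 26.9 in adult replicates, Dcn being the brightest. Peritubular myoid markers fell in 3 of 5 cases and rose in 1, with sums of 21.9, 22.1 and 27.1 against 5.46, 4.55 and 6.72. Myh11 was the brightest of them and Cnn1 was not well above background at either age. Leydig cell markers, by contrast, rose in 4 of 8 cases and fell in 2, and their sum was higher in adult testis, at 32.0, 35.1 and 30.3 in neonatal and 82.8, 69.3 and 63.9 in adult replicates. By mean signal Hsd3b1 was the brightest Leydig marker in neonatal and Insl3 in adult testis. The higher adult sum rests largely on Insl3. Its normalized log2 signal was 2.31, 2.42 and 1.03 in neonatal and 5.8, 5.3 and 5.14 in adult replicates.

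Endothelial cells and macrophages lie in the interstitium as well. Endothelial markers fell in 6 of 6 cases, with sums of 8.95, 10.1 and 15.8 in neonatal and 2.54, 2.21 and 3.57 in adult replicates, Cdh5 being the brightest. Macrophage markers differed little in sum, at 6.05, 5.97 and 5.75 in neonatal and 5.02, 5.21 and 5.42 in adult replicates, with Csf1r the brightest by mean in neonatal and Mrc1 in adult testis. Of these, 2 of 4 fell.

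Germ cells changed in kind between the ages. Spermatogonium markers fell in 6 of 6 cases, with sums of 99.1, 107.4 and 97.8 in neonatal and 20.4, 21.9 and 17.2 in adult replicates. Uchl1 was the brightest and Gfra1 was not well above background at either age. Spermatocyte markers rose in 5 of 6 cases, with sums of 19.5, 16.2 and 13.2 against 251.0, 269.3 and 293.3, Sycp1 being the brightest in neonatal and Pgk2 in adult testis. Spermatid markers rose in 7 of 7 cases, with sums of 0.71, 0.747 and 0.834 against 1123, 1343 and 1534, and the brightest was Tnp1 in neonatal and Prm2 in adult testis. The sums of spermatocyte and spermatid markers were therefore far higher on every adult array.

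**Figure D3:**
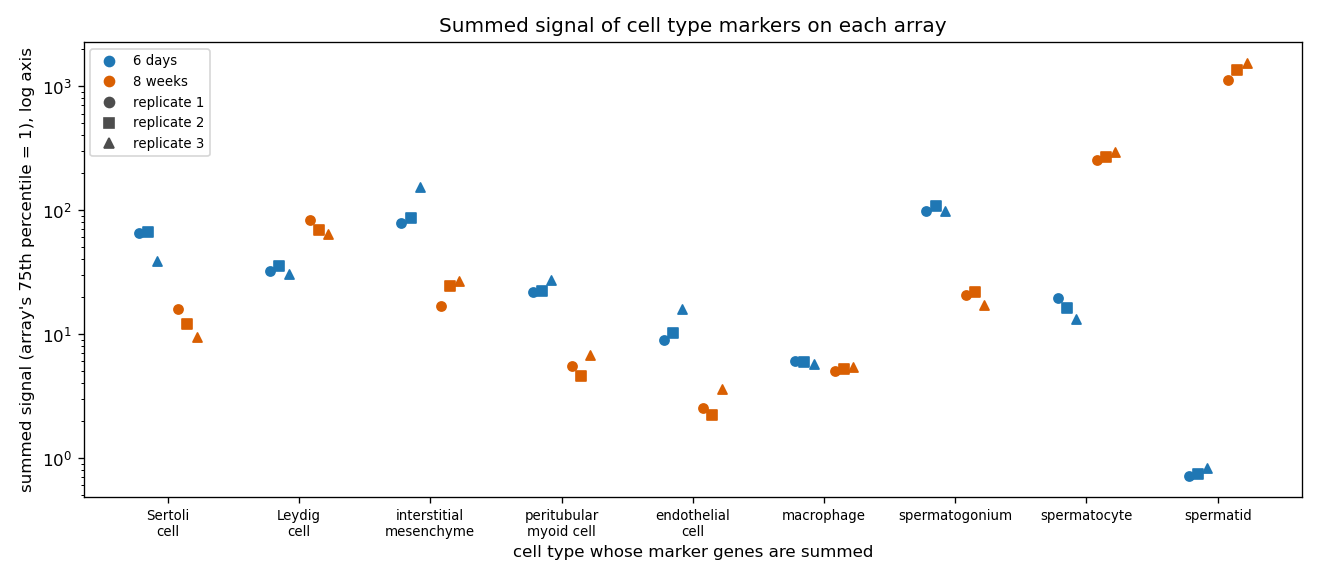
Summed signal of the marker genes of testis cell types (horizontal axis) on each array, in units of the array's 75th percentile on a log axis (vertical axis). Points are single arrays, coloured by age and shaped by replicate. Sertoli, interstitial, myoid, endothelial and spermatogonium sums are lower in adult testis, Leydig, spermatocyte and spermatid sums are higher, and macrophage sums lie close together.

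The array also carries lncRNA probes at the member loci. Those given here were taken from the study's list of lncRNAs it found changed on these same samples, with the study's annotation of their position, so their difference between the ages is a description without a test, with outlier-flagged spots kept. An exonic sense transcript of Ptch1, uc007qxu, read 3.74, 3.93 and 3.68 on the neonatal arrays and 0.72, 0.69 and 0.39 on the adult arrays, which is 9.06-fold lower in adult testis. This probe was well above background on all 6 arrays, unlike the mRNA probe of Ptch1. An antisense transcript overlapping an exon of Dhh, AK134149, read -4.60, -4.48 and -4.21 in neonatal and -0.09, -0.38 and 0.17 in adult replicates. It was 20.1-fold higher in adult testis, the opposite direction to the Dhh mRNA.

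At Gli3, an intronic sense transcript, AK052513, read -1.68, -1.61 and -0.32 in neonatal and -4.41, -4.86 and -3.53 in adult replicates, 8.28-fold lower in adult testis. An intergenic transcript assigned to the same gene, AK137112, read -3.09, -2.89 and -2.01 against -5.99, -6.84 and -5.64, 11.2-fold lower, with 2 of the 3 adult spots well above background. Both were lower in adult testis on every array, as was the Gli3 mRNA. The intergenic transcript uc007qxz, assigned to Ptch1, went the other way, from -7.22, -7.22 and -6.81 in neonatal to -1.67, -1.79 and -2.49 in adult replicates. It was well above background on 1 neonatal and 3 adult arrays.

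Genes with the pattern most like each member were sought among 4380 mRNA probes that were well above background and free of outlier flags on all 6 arrays. Likeness was the root mean squared difference of normalized log2 signals after each was centred on its own mean, over 6 arrays except for Gli1 and Gli3, which had 5 without flagged spots. Dhh was nearest to AW551984 (0.26) and Fbln7 (0.42), and Smo to Akr1b7 (0.31) and Clec2l (0.55). Clec2l was also among the nearest to Hhip (0.39), followed by Lrfn3 (0.43), and to Gli1 (0.25), followed by Kcp (0.35). Gli2 was nearest to Cntnap1 (0.12) and Mavs (0.15), and Gli3 to Lrfn3 (0.30) and Pdlim4 (0.31). The adult spots of Gli3 lay at or beside the floor, so its distances and their order depend on the floor. The dim members had AY074887 (0.12) and Selenom (0.17) nearest to Ptch1, and Mia (0.13) and Apom (0.15) nearest to Sufu.

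Since most members moved together, their promoters were searched for the letters that Gli proteins are known to bind. RefSeq windows of 300 bases on GRCm38.p6, from 250 bases before to 50 bases after the start of transcription, were matched for 7 of the 8 members, and Gli1 was not matched. The Gli consensus GACCACCCA, searched on both strands, was in 0 of the 7 windows and in 0.253% of all 32851 windows. Its core, ACCACCC, which lies within the consensus, was in 1 of the 7 windows and in 4.61% of all. That window belongs to Gli2 (chr1:119053570-119053869, minus strand) and is shown because it holds the match, which begins at base 46. It reads 5′ to 3′ on the strand of the gene, and the capitals mark GGGTGGT, the core on the opposite strand.
Gli2: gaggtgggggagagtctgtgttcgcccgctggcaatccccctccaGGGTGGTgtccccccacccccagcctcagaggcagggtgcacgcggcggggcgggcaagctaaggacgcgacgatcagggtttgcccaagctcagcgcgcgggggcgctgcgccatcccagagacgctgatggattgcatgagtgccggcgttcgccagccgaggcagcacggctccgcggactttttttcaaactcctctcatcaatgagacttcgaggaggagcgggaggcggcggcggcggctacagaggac
A match of these letters is a description and not a binding site. The GC content of the 7 windows was 56.3% to 76.3%, beside a median of 52.7% over all windows, and they held 12 to 47 CpG dinucleotides beside a median of 7.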

How the data were processed

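RNA from 3 neonatal and 3 adult testis samples was measured on Agilent arrays. Per the labels, cDNA was made with an oligo dT primer and labelled with Cy3. The scanner files that the authors deposited, made with Feature Extraction 10.5.1.1 (the submitters' processing notes), give the spots' intensity after background subtraction, with no scaling between arrays. A further table deposited by the authors is in log2 units, with medians 1.20 to 1.30 per array. On each array 99.8% of its values lie within 0.001 of the log2 of the signal, floored at 5, less an array constant. That constant's origin is not given in the sources used here.

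Spots of a probe were averaged. Signals were divided by the array's 75th percentile of non-control probes, floored at -7.22 after scaling to log2, and tested with limma 3.58.1 in R 4.3.3 (Python 3.11.15, numpy 2.4.6, pandas 2.3.3 and matplotlib 3.10.9 for the rest). Outlier-flagged spots were left out (6.11% to 30.7% of 38031 spots per array), 0 spots were saturated, and 85 probes of neither class were left out. The 15121 mRNA probes tested had at least 2 complete pairs and rose well above background somewhere. RefSeq on GRCm38.p6 named 21901 of 22464 mRNA probes (97.5%). A gene with several probes was taken by its brightest. The fit was also run on simulated data with errors drawn independently for each array. These lack the correlation between arrays of a slide, so that run does not test the replicate block.

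The replicate number was a block because the study's methods pair samples. To check this, deviations from the age means were correlated between ages over 7333 probes: r was 0.497, 0.429 and 0.777 for replicates 1 to 3, 0.508 and 0.470 between different numbers on 1 slide, and -0.690 to -0.556 between slides. On the slide with 2 replicates of each age, arrays of the same number were thus no more alike than arrays of different numbers, and for replicate 3 number and slide coincide. The deviations of a probe within an age cancel out by construction. The values between slides and that of replicate 3 are therefore not independent of those on the other slide.

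Named genes are the members, other ligands, and per role the 2 listed genes with the largest change among those passing and measured on at least 4 arrays. Measured was read as well above background; counting every array with a value would name Evc in place of Arrb2, and both are given. Members and lists were chosen with earlier results of these data known. Alternatives were other floors, scalings, background correction, filters, flagged spots kept, no block, the slide in place of the replicate, an intensity trend, the methods' t-test, and leaving out arrays. The normexp correction was planned on mean spot signals, which the files lack, and used median spot signals with an offset of 50. A planned comparison of Gli proteins was not analysed here, as no protein sequences were held. A planned list of cell type markers is not reported here.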

Additional observations from a re-analysis of the deposited data

How the results depend on the processing

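Dhh, Smo, Hhip, Gli1 and Gli2 kept their direction and their call in every setting that could be fitted: 22 each for Dhh, Smo, Hhip and Gli1, and 26 for Gli2. Gli3 did so in 21 of 22, and had an adjusted p of 0.0709 in the methods' t-test after adjustment. Ptch1 was called in 16 of 26 settings, not called in 9, and reversed to 0.20 after the normexp background correction, where adjusted p was 0.117 (0.00244 to 0.907 over all). Sufu was called in 8 of 26. The cause was not tested.

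Of members, 4 fell as processed, 7 with flagged spots kept and 7 on the authors' log2 values, since 8 instead of 5 were then tested; 3 fell after normexp and 3 in the adjusted t-test of the methods. The 1 member that rose became 0 with quantile normalization, a floor of 5 ahead of scaling, no floor, the shift to the median, the authors' log2 values, no filter, and the methods' t-test before and after adjustment. Members called at 5-fold went from 3 to 6 with flagged spots kept, 6 on the authors' values, 1 after normexp and 2 in that adjusted test. Of all mRNA probes, 13.7% fell by at least 5-fold as processed, 15.4% with flagged spots kept and 6.84% after normexp. That share was not counted for the authors' values, the adjusted test or the fits that leave out replicates or arrays. Of pathway genes, 19 of 39 tested fell as processed and 29 of 45 on the authors' values. Of all mRNA probes, 6921 of 15121 and 10107 of 18506 fell in these fits. By the methods' t-test 12 of 39 pathway genes fell before and 9 after adjustment, after which 4 rose in place of 13. Before adjustment that test called 5110 of 15105 mRNA probes lower. After adjustment that test called 3309 mRNA probes lower and 2660 higher, against 6921 and 4493.

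Without the replicate block, 3 members fell and 1 rose, since Ptch1 (limma log2 fold change -0.61, adjusted p = 0.422) was lost. The pairing changed no other member's call. In that fit 18 of 39 pathway genes fell and 12 rose, beside 6357 and 4037 of 15143 mRNA probes. With the slide as a block, 4 members fell and 1 rose, beside 7200 and 4665 of 15143 mRNA probes.

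Leaving out a replicate or an array gave 1 to 7 members that fell, 0 to 1 that rose, 1 to 6 called at 5-fold, 4 to 25 pathway genes that fell and 3 to 14 that rose, 2516 to 8628 mRNA probes lower and 1865 to 5346 higher. As few as 3 members were tested where replicate 1 or 2 was missing, because replicate 3 carries most outlier flags. Leaving out pairs with flagged spots kept was chosen after seeing the data, and gave 7, 6 and 7 members that fell without replicates 1, 2 and 3. In each of these fits 0 members rose and 6 were called at 5-fold. There 24 to 25 pathway genes fell and 13 to 14 rose, with 8455 to 8628 mRNA probes lower and 5064 to 5346 higher. Ptch1 lost its call without replicate 2 (adjusted p = 0.0838) and, with no block, without any single array. Sufu lost it without replicate 1, 2 or 3 (adjusted p = 0.125, 0.0842 and 0.169). Signal over background limits Ptch1, Sufu and the adult values of Gli2 and Gli3.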
